A study of Mus musculus with 6 samples.

Results

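The genes described here carry, take up, store and release iron: Trf, Tfrc, Steap3, Steap4, Heph, Fth1, Ftl1 and Hmox1. They were chosen by name, with earlier results of the same libraries in view, and all 8 had a row in the deposited table of 24940 genes. All 8 were also among the 12233 genes with enough counts to be tested. They were measured by RNA sequencing in primary hepatic stellate cells, the liver pericytes that store vitamin A, from wild-type female C57BL/6JBomTac mice. The cells of both groups were kept in culture for 2 days. The forskolin group then received 5 µM forskolin, a plant diterpene that activates adenylyl cyclase and raises cAMP, and the control group received the solvent DMSO, each for 3 h. Each group held 3 libraries, named A, B and C. The labels do not say whether these came from separate mice or cultures, so every p-value is set by the spread between these libraries alone, which may be technical.

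Iron travels in blood bound to transferrin, which cells take up through the transferrin receptor; in the endosome the iron is released, reduced by a STEAP reductase and moved into the cytosol. Iron that is not used is stored in ferritin shells of heavy and light chains, leaves the cell through ferroportin, and is freed from heme by heme oxygenase. In liver, hepatocytes make most plasma transferrin and store most iron, while macrophages recycle iron from red cells. Much of this control acts on translation and on mRNA stability: iron regulatory proteins bind a short hairpin, the iron-responsive element, in the 5′ untranslated region of ferritin and ferroportin mRNAs, where they block translation, and in the 3′ untranslated region of transferrin receptor mRNA, where they stabilise it.

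The hairpins of the genes measured here are shown because mRNA counts can follow the receptor's stability control but not the block on ferritin translation. They were found in GENCODE M21 transcripts (GRCm38, the mm10 build) with a pattern of an unpaired C, 5 bases, the loop CAGTGN and 5 bases that pair with the first 5, G to T pairs included. The unpaired C and the loop are in capitals, and each sequence reads 5′ to 3′ along the mRNA, in DNA letters.
Fth1: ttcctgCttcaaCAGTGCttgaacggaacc
Ftl1: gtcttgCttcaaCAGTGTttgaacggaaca
Slc40a1: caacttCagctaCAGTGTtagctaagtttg
Tfrc site 1: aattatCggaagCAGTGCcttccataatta
Tfrc site 2: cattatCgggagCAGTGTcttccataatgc
Tfrc site 3: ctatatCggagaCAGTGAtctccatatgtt
Tfrc site 4: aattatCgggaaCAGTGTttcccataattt
The Fth1 site lies at chr19:9982732-9982761 (plus strand), the Ftl1 site at chr7:45459778-45459807 (minus strand) and the site of Slc40a1, which encodes ferroportin, at chr1:45925464-45925493 (minus strand), each in exon 1 and the 5′ untranslated region. The Tfrc sites lie in the 3′ untranslated part of exon 19, on the plus strand, at chr16:32631219-32631248, chr16:32631598-32631627, chr16:32631663-32631692 and chr16:32631710-32631739. The pattern was found in the 5′ untranslated region of 17 of 19780 genes searched (0.0859%), in the 3′ untranslated region of 101 (0.511%) and in the coding sequence of 128 (0.647%). It was found in 3 of the 8 genes and in none of Trf, Steap3, Steap4, Heph and Hmox1. Of the other iron genes listed below, Alas2 also had a match in its 5′ untranslated region, which spans 2 exons and is not shown. For those other genes, matches on another chromosome were left out, so their set is not complete. A match describes the letters and is not evidence of binding.

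**Figure D1:**
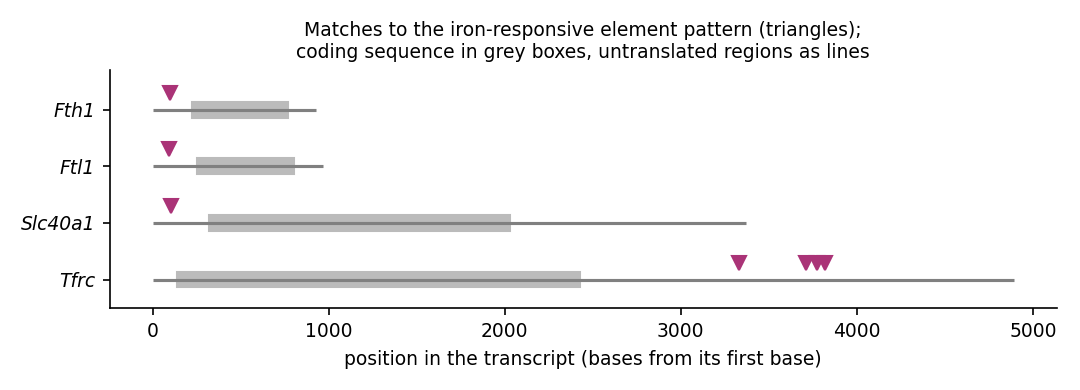
Position of each match to the iron-responsive element pattern along the transcript, in bases from its first base, for Fth1, Ftl1, Slc40a1 and Tfrc. Triangles are matches, grey boxes the coding sequence and lines the untranslated regions; the ferritin and Slc40a1 matches lie before the coding sequence and the 4 Tfrc matches after it.

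Total counts ran from 2770628 in forskolin C to 10607997 in forskolin B, and both C libraries were the shallowest of their group. The 8 genes took 0.283% to 0.53% of all counts, the higher shares in the C libraries. The labelled cell type was seen in its markers: all 10 stellate cell genes passed 1 CPM, the count after scaling every library to the same total, in every library, with sums of 1550 to 1620 CPM in DMSO and 1550 to 1710 CPM in forskolin. Single genes within these sums differed in direction. Hgf was at 86.1, 75.7 and 64.1 CPM in forskolin A, B and C and at 26.9, 27.2 and 16 CPM in DMSO. Lrat was at 7.71, 5.42 and 6.5 CPM in forskolin and at 8.74, 9.41 and 11.7 CPM in DMSO. Sums for other cells were far lower: 4.8 to 21.1 CPM for 10 hepatocyte genes, 14.2 to 21.8 CPM for 11 macrophage genes, 6.81 to 13.5 CPM for 8 endothelial genes, 1.59 to 10.1 CPM for 5 cholangiocyte genes and 1.18 to 5.41 CPM for 6 lymphocyte genes. Of 6 erythroid genes, 5 had no count in any library. In bulk RNA, fewer cells of a type and less RNA per cell cannot be told apart.

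Per base of transcript, the 8 genes spanned about 3 orders of magnitude in the DMSO group. RPKM, the count per kilobase of deposited gene length after scaling as for CPM, averaged 909 ± 303 (SD, n = 3) for Hmox1, 900 ± 378 for Fth1 and 818 ± 304 for Ftl1. The library ranges of these 3 overlapped, so their order cannot be told. The receptor Tfrc followed at 78.9 ± 5.30 RPKM, then Heph at 39.5 ± 7.68 RPKM, Trf at 7.21 ± 1.74 RPKM, Steap4 at 3.49 ± 0.645 RPKM and Steap3 at 0.632 ± 0.105 RPKM. From Ftl1 down, no library range of a gene overlapped that of the next one. In forskolin the mean levels were 984 ± 567 RPKM for Fth1, 871 ± 406 for Hmox1, 869 ± 439 for Ftl1, 93.7 ± 7.77 for Tfrc, 39.6 ± 2.64 for Heph, 19.8 ± 4.12 for Trf, 5.58 ± 2.87 for Steap4 and 1.57 ± 0.244 for Steap3. The first 3 overlapped there too, and the other genes kept the same order.

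The comparison asks which iron genes differ after 3 h of adenylyl cyclase activation. By edgeR's quasi-likelihood test with Benjamini-Hochberg adjustment over all genes, 342 of 12233 tested genes (2.8%) were called at 0.05, 272 higher (2.22%) and 70 lower (0.572%). Of the 8 iron genes 1, Trf, was called higher and 7 were not called. Since the genes were chosen with this contrast in view, nothing is read from that count, and their differences are given as a description without p-values. Values did not overlap between the groups for 3 of the 8 (Trf, Tfrc and Steap3, all higher with forskolin), and the same held for 20.2% of all tested genes (10.7% higher, 9.46% lower). The median log2 fold change of the 8 was 0.19, and that of all tested genes was 0.005.

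**Figure D2:**
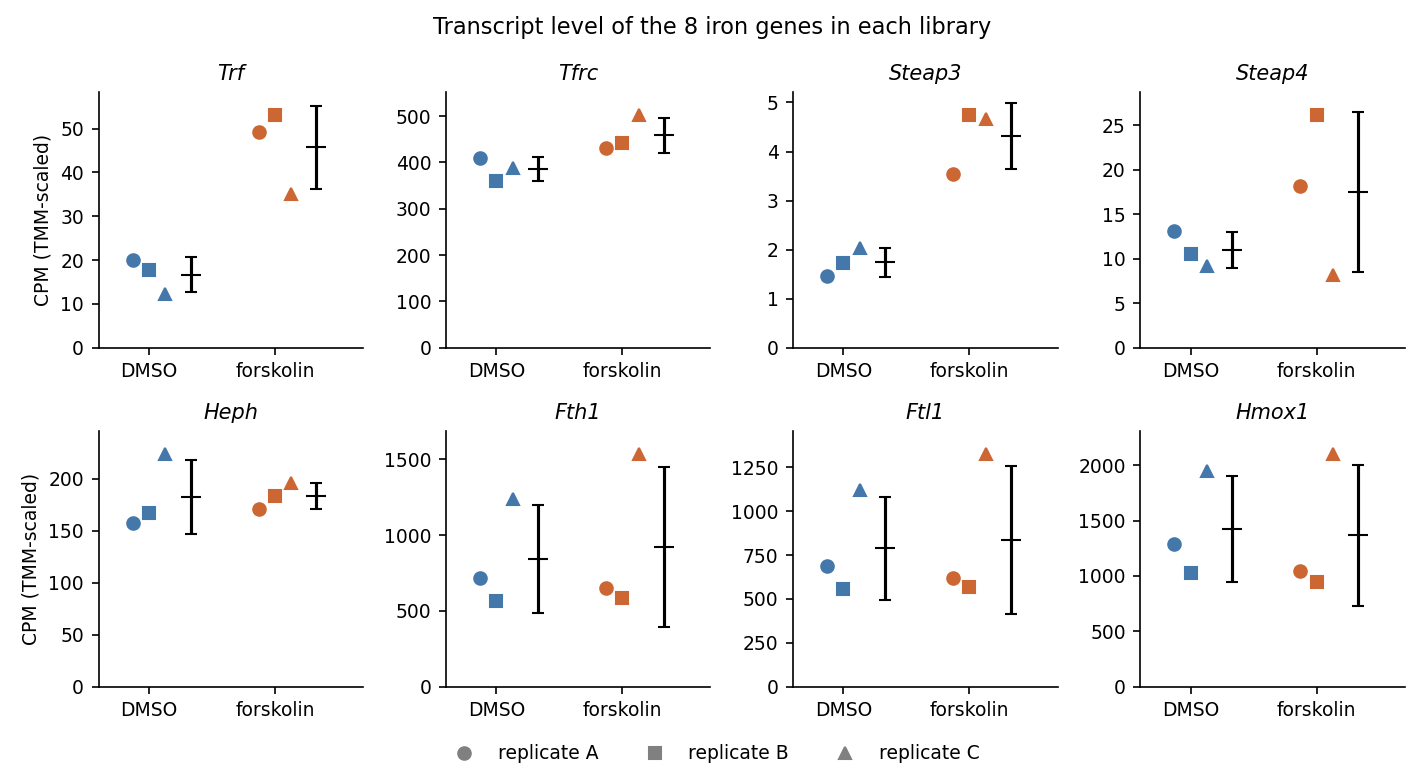
Level of the 8 iron genes in CPM on TMM-scaled library sizes, on linear axes that start at 0, with a panel per gene and a symbol per replicate letter; bars are the mean ± SD of 3 libraries. Trf, Tfrc and Steap3 separate the groups, while Fth1, Ftl1 and Hmox1 separate the C libraries from the other libraries in both groups.

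Trf encodes transferrin, the iron carrier of plasma (chr9:103208876-103230286, minus strand). It stood at 49.2, 53.1 and 35.0 CPM in forskolin A, B and C and at 19.98, 17.83 and 12.2 CPM in DMSO A, B and C. Every forskolin library was above every DMSO library, and C was the lowest library of each group. The means were 45.7 ± 9.52 and 16.7 ± 4.02 CPM (SD, n = 3 in each), and the log2 fold change was 1.44 ± 0.24 (SE), or 2.72-fold. The call given above was lost after leaving out forskolin A, DMSO B or forskolin B, where the log2 fold change was 1.40, 1.49 and 1.33. Compared letter by letter, the log2 ratio was 1.30, 1.57 and 1.52 for A, B and C. The depth behind these values was 472.5, 571 and 90.5 counts with forskolin and 137, 176.5 and 36.5 counts with DMSO.

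Because hepatocytes are the main source of transferrin in liver, their markers were set beside it. Of the 10 hepatocyte genes, 2 (Alb and Apoa1) passed 1 CPM in every library and 1 had no count in any. Their sum was 4.8, 13.5 and 21.1 CPM in forskolin A, B and C and 10.2, 6.93 and 7.77 CPM in DMSO A, B and C. Forskolin B and C thus lay above every DMSO library in this sum, and forskolin A lay below all of them. Alb, which encodes albumin, ran from 1.58 to 7.4 CPM. The part of hepatocyte RNA in the Trf values was not tested.

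Tfrc encodes transferrin receptor 1, through which cells take up loaded transferrin (chr16:32608896-32632794, plus strand). It stood at 431, 442 and 502 CPM with forskolin and at 410, 359 and 388 CPM with DMSO (libraries A, B and C). The groups did not overlap, but forskolin A and DMSO A were close. The means were 458 ± 38.0 and 386 ± 25.9 CPM, a log2 fold change of 0.25 ± 0.12. Carrier and receptor therefore differed in the size of their change: per length, receptor mRNA was 9.71, 9.51 and 15.1 times carrier mRNA in DMSO A, B and C and 4.14, 3.94 and 6.78 times in forskolin A, B and C. In both groups this ratio was highest in C.

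Steap3 and Steap4 encode membrane metalloreductases that turn ferric into ferrous iron; Steap3 is the endosomal reductase of the transferrin cycle in red cell precursors. Steap3 (chr1:120226416-120265280, minus strand) stood at 3.54, 4.74 and 4.66 CPM with forskolin and at 1.46, 1.72 and 2.03 CPM with DMSO. The groups did not overlap, but the counts were low: 34, 51 and 12 with forskolin and 10.5, 17 and 6 with DMSO. The means were 4.32 ± 0.671 and 1.74 ± 0.288 CPM, a log2 fold change of 1.32 ± 0.65, about as large as that of Trf with a wider error.

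Steap4 (chr5:7960472-7982213, plus strand) stood at 18.1, 26.1 and 8.16 CPM with forskolin and at 13.1, 10.5 and 9.15 CPM with DMSO. Forskolin A and B lay above all DMSO libraries and forskolin C below them, so the groups overlapped. The means were 17.5 ± 8.995 and 10.9 ± 2.02 CPM, a log2 fold change of 0.71 ± 0.39. The change was 0.91 without both C libraries and 0.30 without forskolin B, so it rests on few libraries. Steap4 passed the threshold without both C libraries, as did 1229 of 12597 tested genes, and nothing is read from that call. The other 2 family members were measured as well: Steap1, at 20.6 ± 6.82 RPKM in DMSO, was above both, and Steap2 was at 4.85 ± 0.799 RPKM. Neither was called, with log2 fold changes of −0.16 ± 0.38 for Steap1 and −0.02 ± 0.26 for Steap2. Per length, Steap2 exceeded Steap4 in all 3 DMSO libraries, by 1.27, 1.58 and 1.35 times, and the ratio was 0.975, 0.695 and 1.03 with forskolin.

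Heph encodes hephaestin, a copper-containing ferroxidase that oxidises iron as it leaves intestinal cells through ferroportin (chrX:96456346-96574484, plus strand). It stood at 171, 184 and 196 CPM with forskolin and at 158, 168 and 224 CPM with DMSO. The groups overlapped, and DMSO C was the highest library. The means were 184 ± 12.3 and 183 ± 35.6 CPM, a log2 fold change of 0.01 ± 0.14. Its plasma relative Cp, ceruloplasmin, was lower per length, at 5.17 ± 1.08 RPKM in DMSO against 39.5 ± 7.68 RPKM for Heph, and had a log2 fold change of 0.31 ± 0.27.

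Fth1 and Ftl1 encode the ferritin heavy chain, which oxidises incoming iron, and the light chain, which helps to form the mineral core. Fth1 (chr19:9982646-9985111, plus strand) stood at 649, 583 and 1533 CPM with forskolin and at 717, 568 and 1241 CPM with DMSO. Ftl1 (chr7:45457944-45459886, minus strand) stood at 620, 568 and 1325 CPM with forskolin and at 689, 558 and 1119 CPM with DMSO. For both chains the groups overlapped and the C library of each group stood well above its A and B libraries. The log2 fold changes were 0.13 ± 0.38 for Fth1, with means of 921 ± 531 and 842 ± 354 CPM, and 0.09 ± 0.34 for Ftl1, with means of 838 ± 423 and 789 ± 294 CPM.

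The ratio of the chains per length, heavy over light, was 1.08, 1.06 and 1.19 in forskolin A, B and C and 1.07, 1.05 and 1.14 in DMSO A, B and C. It was highest in the C library of each group. Both chains are among the densest genes, whose counts grew less than depth (described after Hmox1), so this ratio carries the same limit as their levels. The annotation names 3 light chain pseudogenes, none of which has a row in the table, so how reads were divided between Ftl1 and such copies is uncertain.

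Hmox1 encodes heme oxygenase 1, the inducible enzyme that opens heme and frees its iron (chr8:75093618-75100593, plus strand). It stood at 1049, 949 and 2100 CPM with forskolin and at 1293, 1030 and 1953 CPM with DMSO. The groups overlapped, again with the C libraries highest. The means were 1366 ± 637 and 1426 ± 476 CPM, a log2 fold change of −0.06 ± 0.32. Hmox2, the constitutive enzyme, was at 39.9 ± 2.92 RPKM in DMSO, so that Hmox1 exceeded it per length by 22.0, 15.2 and 31.9 times in DMSO A, B and C and by 17.1, 15.96 and 24.1 times in forskolin. Across the 6 libraries Hmox1 correlated with Fth1 at 0.98 and with Ftl1 at 0.99; these are descriptions over shared libraries, and both C libraries are the high points for all 3 genes.

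A measured property of the counts goes with the high C values of these 3 genes. Averaged over libraries they had 5.45 (Fth1), 5.36 (Hmox1) and 5.01 (Ftl1) counts per base of gene length, which ranked 1, 2 and 5 among the 12233 tested genes. A gene whose counts follow depth has a slope of 1 when the log2 count ratio of the deep library B to the shallow library C is divided by the log2 ratio of their totals. The slope was 0.374 in DMSO and 0.345 in forskolin for Fth1, 0.449 and 0.434 for Ftl1, and 0.499 and 0.474 for Hmox1. In counts, Fth1 went only from 3663 in DMSO C to 5610.5 in DMSO B while the library total went from 3025990 to 9454832.

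This was a property of dense genes in general. The median slope was 1.02 in both groups for the 1900 genes with 0.3 to 1 count per base, 0.828 and 0.795 for 364 genes with 1 to 2, 0.634 and 0.621 for 66 genes with 2 to 4, and 0.469 and 0.452 for the 8 densest genes, which include Fth1, Ftl1 and Hmox1. Tfrc, at 0.603 counts per base, had slopes of 0.991 and 0.972, and the Trf slopes were 1.38 and 1.37. Trf, at 0.107 counts per base, was thus above the medians of 1.1 and 1.11 for the 3431 genes with 0.1 to 0.3. The slopes in DMSO and forskolin were 1.18 and 1.93 for Steap4, 0.914 and 1.08 for Steap3 and 0.806 and 1.02 for Heph. The CPM of the ferritins and Hmox1 thus differed with depth inside each group, which touches their levels, their order, their ratios and their fold changes alike. With offsets that follow counts per base, an alternative chosen after the data were seen, the log2 fold change was 0.02 ± 0.08 for Fth1, −0.15 ± 0.06 for Hmox1 and 1.46 for Trf. These offsets were fitted to each library over the tested genes, treatment differences included. They therefore also take out any difference between the groups that genes of like density share. Whether duplicate reads were removed is not given in the sources used here, and its part in these slopes was not tested.

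**Figure D3:**
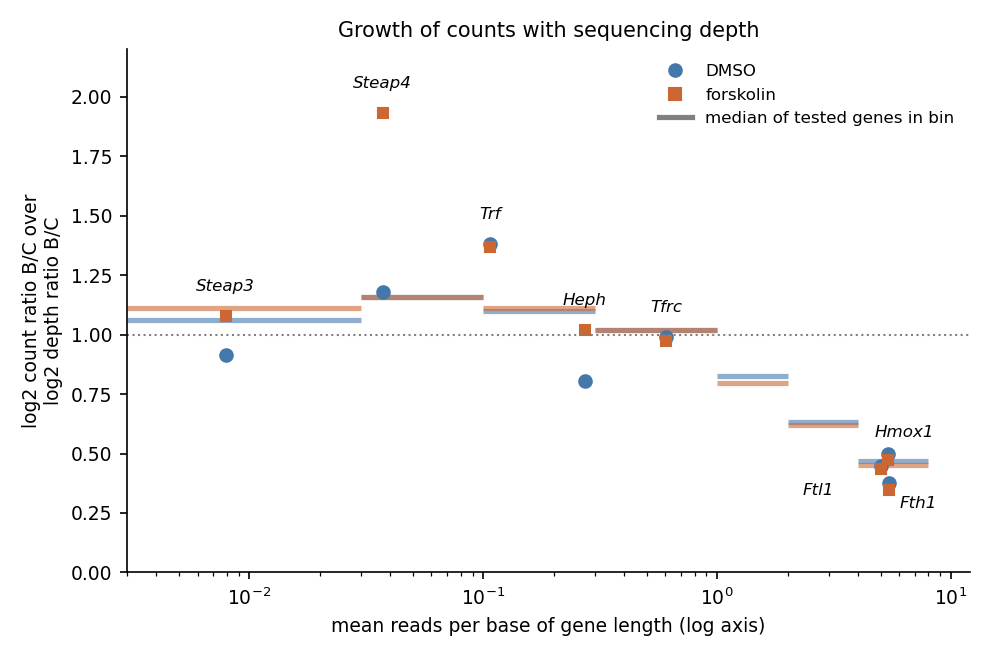
Slope of counts on depth (log2 count ratio of library B to C over the log2 ratio of their totals) against mean counts per base of gene length, on a log axis, for the 8 iron genes in each group; bars are medians of tested genes per density bin and the dotted line marks a slope of 1. Fth1, Ftl1 and Hmox1 lie at the dense end, with slopes of 0.345 to 0.499.

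Promoter words were searched for the cAMP response element in RefSeq windows from 250 bases before to 50 after the gene start (GRCm38.p6), on both strands. The full word TGACGTCA was in 2.44% of 17099 windows and in 0 of the 5 iron genes that had a window. Its part TGACG, which every full word contains, was in 24.6% of windows and in 2 of the 5. These are shown because they are the only matches near the starts of the iron genes searched, with TGACG in capitals and each on the plus strand.
Fth1 at chr19:9982644-9982673: ccagcgctcgccTGACGcaggatcccgcta
Tfrc at chr16:32608897-32608926: tgcggaaggaagTGACGtagatccagaggg
Trf, Heph and Hmox1 have no window in the table used. A word of this length is common, and no match says only that these letters are not in this window.

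The surrounding iron pathway was read from 5 lists of other genes. Of 93 genes listed, 91 had a row and 78 were tested. Of these, 3 were called higher and 1 lower (5.13%, against 2.8% of all tested genes), and 74 were not called. The lists were chosen with earlier results of these data known, so neither this share nor the calls below are independent evidence. The median log2 fold change of the 78 was 0.06. The hepcidin genes were not detected at this depth: Hamp and Hamp2, which encode hepcidin, and Hfe2, which encodes its co-regulator hemojuvelin, had no count in any library, which allows up to 0.283 CPM in forskolin B and 1.08 CPM in forskolin C. Tfr2, the second transferrin receptor, had 25 counts over all 6 libraries and was not tested.

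Among transferrin cycle and transport genes, 0 of 15 tested were called higher and 1 lower. The faller was Slc40a1, ferroportin, the iron exporter of cells. It stood at 48.8, 48.5 and 30.7 CPM with forskolin and at 81.7, 94.3 and 71.2 CPM with DMSO. All forskolin libraries lay below all DMSO libraries, with means of 42.7 ± 10.4 and 82.4 ± 11.6 CPM. It fell by 0.93 ± 0.19 on the log2 scale (edgeR adjusted p = 0.031). The call was lost with library sizes alone (adjusted p = 0.0593) and after leaving out DMSO B (0.186), DMSO A (0.127), forskolin A (0.0824) or forskolin B (0.0691). Over 19 alternatives the log2 fold change ran from −1.025 to −0.768.

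Ferroportin is also abundant in macrophages, whose 11 markers summed to 18.6, 14.2 and 14.4 CPM in forskolin A, B and C and to 18.7, 21.8 and 21.6 CPM in DMSO. This sum was lower in every forskolin library than in every DMSO library, in A by little. It came mostly from Cd68 and Csf1r, while Adgre1, the defining F4/80 gene, had counts in 1 library only and 2 markers had none. The part of these cells in the Slc40a1 value was not tested. The other transport genes named by rule were Slc11a2, the divalent metal transporter that moves iron out of endosomes, at 0.06 ± 0.14; Ncoa4, the receptor that sends ferritin to lysosomes, at −0.01 ± 0.16; Lrp1, which takes up heme bound to hemopexin, at 0.06 ± 0.24; and Pcbp2, an iron chaperone, at 0.04 ± 0.17. None of them was called.

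Among iron regulatory protein and hepcidin pathway genes, 1 of 12 tested was called higher and 0 lower. Bmp2, which in liver endothelium signals to hepatocytes to make hepcidin, stood at 75.4, 82.4 and 73.1 CPM with forskolin and at 42.6, 36.1 and 37.6 CPM with DMSO. The groups were well apart, and the log2 fold change was 0.99 ± 0.14 (edgeR adjusted p = 0.0034). Its rise was already known from these libraries when the list was written, so it is not independent evidence. Aco1 and Ireb2, which encode the 2 iron regulatory proteins, had log2 fold changes of 0.08 ± 0.10 and 0.05 ± 0.13 and were not called. The receptor gene Bmpr2 was at −0.15 ± 0.12 and the inhibitor Smad7 at −0.17 ± 0.18, also not called.

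Among heme genes, 0 of 17 tested were called by edgeR in either direction. The count was also 0 at an unadjusted p under 0.05, and 0 by DESeq2, limma-voom and edgeR's likelihood ratio test. Without both C libraries, where 1229 of all 12597 tested genes were called, 1 heme gene was called. It was Cpox, an enzyme of heme synthesis named after its values were seen, with a log2 fold change of −0.41. The most abundant of the list were Slc48a1, a heme transporter of lysosomes, at −0.04 ± 0.11, and Pgrmc1, a heme-binding membrane protein, at −0.03 ± 0.22.

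Among mitochondrial iron genes, 1 of 16 tested was called higher and 0 lower. Isca1, which takes part in the assembly of iron-sulfur clusters, stood at 96.3, 85.7 and 109 CPM with forskolin and at 49.0, 48.6 and 56.3 CPM with DMSO. The groups did not overlap, and it rose by 0.92 ± 0.14 (edgeR adjusted p = 0.0051). A row for Etohd2 begins 176 bases away on the opposite strand, and the libraries are not stranded, so their reads near that border cannot be told apart. Slc25a37, mitoferrin 1, the iron importer of mitochondria, was at 0.12 ± 0.15, and Hspa9, the chaperone of cluster transfer, at 0.08 ± 0.25; neither was called.

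Among NRF2 and BACH1 genes, which include the known regulators of Hmox1 and the ferritins, 1 of 18 tested was called higher and 0 lower. Gclc, the catalytic subunit of the enzyme that limits glutathione synthesis, stood at 608, 617 and 819 CPM with forskolin and at 371, 357 and 486 CPM with DMSO. The groups did not overlap, C was the highest library in each, and the log2 fold change was 0.75 ± 0.17 (edgeR adjusted p = 0.0467). The call was lost with RLE factors (adjusted p = 0.0576), with upper quartile factors (0.0827) and after leaving out DMSO B (0.254), DMSO A (0.247), forskolin A (0.0977) or forskolin B (0.0858). The activator Nfe2l2 (NRF2) was at 0.33 ± 0.22 (adjusted p = 0.648) and the repressor Bach1 at 0.37 ± 0.15 (adjusted p = 0.3304). Both were called with the replicate letter as a block (adjusted p = 0.0147 and 0.0136) and without both C libraries (0.0029 and 0.00316). So was Slc7a11, the cystine importer, named after its values were seen. It was at 0.30 with the block (adjusted p = 0.0327) and 0.29 without both C libraries (0.0285). The list thus went from 1 call to 4 in each of these settings. Calls over all tested genes also rose there, from 342 of 12233 to 649 of 12233 with the block and 1229 of 12597 without both C libraries. Nqo1, a quinone reductase under NRF2, was at 0.21 ± 0.13, Txnrd1, thioredoxin reductase 1, at −0.05 ± 0.27, and Sqstm1, the autophagy receptor p62, at 0.09 ± 0.34; none was called.

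**Figure D4:**
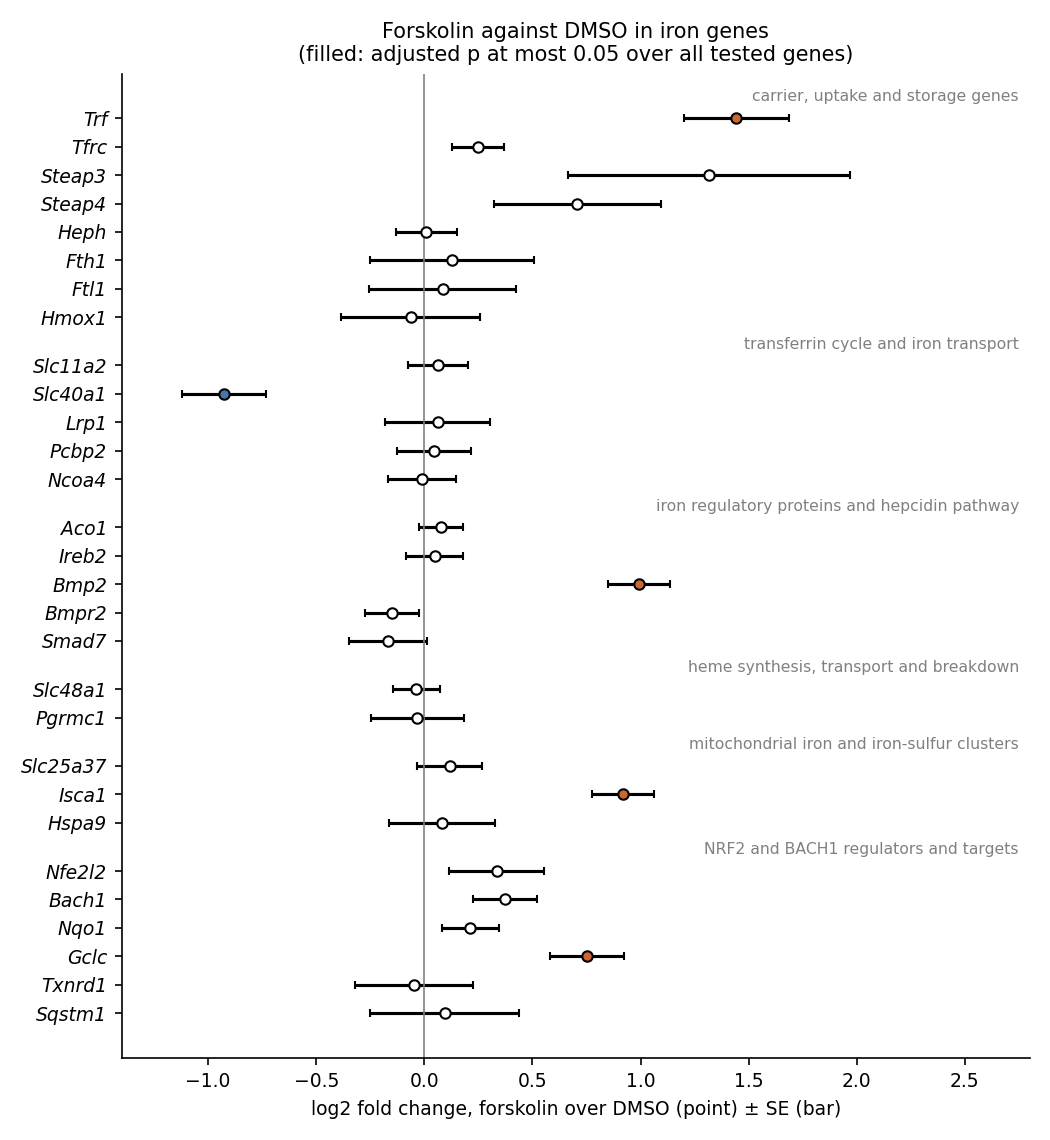
Log2 fold change of forskolin over DMSO (points) with its SE (bars) for the 8 iron genes and for the other iron genes named by rule, grouped by list; filled points have an adjusted p of at most 0.05 over all tested genes. Trf, Bmp2, Isca1 and Gclc are filled on the right and Slc40a1 is filled on the left, at −0.93.

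The genes whose level followed each of the 3 iron genes with the largest log2 fold change were ranked by Pearson's r of log2 CPM over the 6 libraries, with no p, since a shared treatment and shared depth enter every r. Closest to Trf were Acsl3, a fatty acid activating enzyme, at 0.996, Tsc22d3, the glucocorticoid-induced leucine zipper, at 0.995, and Pi4ka, a phosphatidylinositol kinase, at 0.995. Tsc22d3 rose by 1.57 ± 0.23, while the log2 fold changes of Acsl3 and Pi4ka were 0.68 and 0.28 and not called. Of 10155 genes ranked, 161 had an r above 0.95 with Trf.
Closest to Steap3 were Polr3d at 0.993, Bhlhe41 at 0.988 and Pde1a, a cAMP and cGMP phosphodiesterase, at 0.987; 87 genes had an r above 0.95. Pde1a rose by 1.08 ± 0.22 on the log2 scale, and the other 2 were not called. Closest to Steap4 were Tmx3 at 0.996, Xylt2 at 0.996 and Stk38l at 0.988, none of them called; 33 genes had an r above 0.95. Trf and Steap3 correlated with each other at 0.83.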

How the data were processed

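The values are expected counts of exon reads per gene, which the authors deposited without adjustment, in 1 table that also gives gene lengths. Of the values 75.8% were whole and 24.2% ended in 0.5; all were rounded, ties to even, before tests. The submitters' processing notes name STAR, HOMER and mm10. The sources used here do not give the handling of duplicates, the counting rule or the annotation. 0 columns of values lacked a sample.

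The test used edgeR 4.0.16 (R 4.3.3): filterByExpr (12233 genes), TMM scaling, robust quasi-likelihood F test of 3 forskolin against 3 DMSO libraries, Benjamini-Hochberg adjustment over all tested genes, called at 0.05. CPM and RPKM use TMM-scaled totals, except for cell type markers and their sums. SEs are approximate: the absolute log2 fold change over the square root of F. The common biological coefficient of variation was 0.213. Floors are 3 counts, 0.283 to 1.08 CPM, which covers counting error alone because PCR copies of a molecule could not be recognised. On simulated counts (12069 genes kept), the test recovered 57 of 98 genes set to a 2-fold change and 94 of 97 set to 4-fold, with 7 unchanged genes called. The simulation gave every gene the same dispersion and counts in proportion to depth. Its rates therefore do not describe genes with a wider spread or the densest genes.

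The iron genes and lists were chosen with earlier results of these data known. Named genes are the 8 iron genes; Slc40a1, Slc11a2, Ncoa4, Aco1, Ireb2, Nfe2l2, Bach1 and Nqo1; per list up to 4 called genes or, with fewer than 2, also the 2 most abundant; and the 3 genes of at least 4 CPM nearest to each of the 3 iron genes with the largest change. Hmox2, Steap1, Steap2, Cp, Tfr2 and the hepcidin genes, outside this rule, were named after their values were seen. Alternatives were upper quartile or RLE factors, unscaled library sizes, 3 filters, DESeq2 1.42.0, limma-voom (limma 3.58.1) with and without quality weights, the likelihood ratio test, a replicate block, leaving out libraries, and offsets that follow counts per base.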

Additional observations from a re-analysis of the deposited data

How the results depend on the processing

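Of 12233 tested genes 342 were called; the number was 620 with no filter, 553 by DESeq2, 989 by limma-voom with quality weights, 648 by the likelihood ratio test and 1229 without both C libraries. Leaving out each library in turn gave 185 to 485. Deviations of same-letter libraries correlated at 0.0476, 0.133 and 0.15 for A, B and C. Forskolin A correlated best with DMSO B (0.103), while forskolin B and C correlated best with the DMSO library of their own letter. Whether the letters mark a shared culture or batch cannot be told from so few libraries. The replicate block called 649 genes and 7 of the other iron genes, against 342 and 4 in the main fit. Of the 8 iron genes 1 was called, 2 without both C libraries (Trf and Steap4), and 0 to 1 with each library left out: Trf was not called without forskolin A, forskolin B or DMSO B, at log2 fold changes of 1.40, 1.33 and 1.49. Over 19 alternatives the Trf change was 1.30 to 1.59. Leaving out forskolin C or DMSO C moved Fth1 from −0.44 to 0.51, Ftl1 from −0.40 to 0.42 and Hmox1 from −0.51 to 0.23; with quality weights Fth1 was at −0.0628 and Ftl1 at −0.074, and without both C libraries at −0.0652 and −0.074. Heph was positive in 13 of 19 alternatives, at −0.0219 with upper quartile factors, −0.0256 with library sizes alone, −0.0255 with offsets that follow counts per base and −0.08 to 0.17 with each library left out. Of the other iron genes 8 were called without both C libraries and 2 to 4 with each library left out; Bmp2 and Isca1 were called in all 19 alternatives.

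Signs also changed for other iron genes near 0, none of those listed next called in any setting. Without both C libraries Slc11a2 was at −0.0303, Hspa9 at −0.067 and Sqstm1 at −0.0801. With quality weights Pcbp2 was at −0.00303, Hspa9 at −0.043 and Sqstm1 at −0.0697. With offsets that follow counts per base Ncoa4 was at 0.0191, Pcbp2 at −0.0309, Hspa9 at −0.0103 and Sqstm1 at −0.00242. With each library left out, ranges were −0.0232 to 0.13 for Slc11a2, −0.0906 to 0.0879 for Ncoa4, −0.0538 to 0.14 for Ireb2, −0.11 to 0.30 for Lrp1, −0.12 to 0.17 for Pcbp2, −0.29 to 0.0654 for Smad7, −0.30 to 0.15 for Pgrmc1, −0.23 to 0.25 for Hspa9, −0.39 to 0.17 for Txnrd1 and −0.39 to 0.41 for Sqstm1. The causes were not tested. Among the 8 iron genes Steap3 had the fewest counts, with 6 in DMSO C.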
